A study of Homo sapiens with 20 samples.

Results

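The untreated nuclei of HCT116 cells were prepared in 2 experiments, and the RNA classes of these preparations are set side by side here. HCT116 is an established colorectal carcinoma line with wild-type p53. The members are the 5 untreated libraries of the 20 of the series, 2 from experiment 1 and 3 from experiment 2, taken by their labels. Both groups carry the same label, wild-type cells electroporated with water (no peptide) and held for 3 hours in 0.1% DMSO (no Nutlin-3a). Nuclei were isolated in a buffer with the detergent NP-40, RNA was taken up in TRIzol, ribosomal RNA was depleted and libraries were made with a directional kit. These protocols are given in the same words for both experiments, so day, reagents, operator and sequencing run cannot be told apart from the experiment. No label says whether replicates came from separate cultures, so p-values measure only the spread between these libraries, which may be technical.

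Of 26485 gene rows, 24994 had the same isoform in both tables and were used. Levels are RPM, the reads of a row scaled to the same total of 1000000 reads over all rows of a library, with no correction for length, and a row's span is its stop minus its start. The libraries held 36717795 and 45085187 reads in experiment 1 and 19979314, 19052980 and 39324843 in experiment 2. Across rows, which are not independent replicates, log2 levels correlated at 0.998 between the libraries of experiment 1, at 0.975 to 0.977 within experiment 2 and at 0.924 to 0.943 between the experiments. The median SD of a row was 0.0676 on the log2 scale in experiment 1 and 0.406 in experiment 2, so the libraries of experiment 2 were the more spread. Epithelial markers were present in both groups (9 of 12 at a mean of 0.5 RPM or more). Their summed level was 2150 to 2178 RPM in experiment 1 and 2648 to 4785 RPM in experiment 2. Of the blood markers 1 of 6 reached that mean (summed 0.136 to 0.444 RPM and 0.472 to 6.96 RPM), with CD3D at 0 in all 5 libraries. Of the fibroblast and endothelial markers 2 of 8 did (14.9 to 15.3 RPM and 21.5 to 81.1 RPM), with LUM at 0. Of the liver and neuron markers 2 of 6 did, ALB and SYT1. The sum of this set ran the other way (421 to 468 RPM in experiment 1 and 14.01 to 69.4 RPM in experiment 2). Only 5 of the 6 had the same isoform in both tables, so this sum may hold a row not used elsewhere. A list of 11 liver and neuron marker rows with the same isoform did not show this order. It held 0.00999% and 0.0102% of reads in experiment 1 and 0.0172%, 0.0167% and 0.0247% in experiment 2. The part of these levels in the results was not tested.

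RNA classes differ in how they are made and where they stay. Messenger RNAs and most long noncoding RNAs are cut, spliced and given a poly(A) tail, whereas replication-dependent histone messages have no introns and end at a stem-loop without a tail. Spliceosomal and nucleolar small RNAs, 7SL, 7SK and the RNAs of RNase P and RNase MRP are short, folded and mostly bound in particles, and many nucleolar RNAs are released from the introns of a host gene. Nuclei hold unspliced transcripts, and reads in introns weigh more the longer the introns of a gene are.

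Of 14890 rows with a mean of at least 0.5 RPM, 2796 (18.8%) were higher in experiment 1 and 2650 (17.8%) in experiment 2, by limma on log2(scaled RPM + 0.5) with Benjamini-Hochberg adjustment. Without replicate 1 of experiment 1 the counts were 553 and 169, and without its replicate 2 they were 663 and 199, so both depend on having 2 libraries in that group. A test for a fold of at least 2 left 604 and 119. With no scaling beyond RPM the counts were 2043 and 3595, a share higher in experiment 1 of 36.2% in place of 51.3%, and the median log2 difference of all rows was -0.33 in place of -0.06. Class medians are therefore differences of log2 levels, experiment 1 minus experiment 2, relative to the median of all rows tested, a choice made after this shift was seen. A log2 difference on this scale understates the change of a low row. Of the rows tested, 462 were under 0.5 RPM in experiment 2 and 572 in experiment 1, and such a row entered the test only through the other group. The read share of a class was compared by an exact two-sided permutation test of 2 against 3 libraries, whose smallest possible p is 0.2. That p was reached wherever all libraries of one group lay above those of the other. Rows that overlap count the same reads more than once, so shares of classes do not add up.

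Replication-dependent histones were present in experiment 1 and nearly absent from experiment 2. These genes make the core and linker histones that package newly copied DNA, and their messages end at a stem-loop. Below are stem-loops (capitals) from 3 of these histones and from the variant H2AFX. The models do not all end there. They run on for 1114 bases past the stem-loop in HIST1H2AC, 1729 in HIST2H2BE, 6 in HIST1H4J and 1044 in H2AFX. In all 4 models AATAAA or ATTAAA also lies in the last 50 bases. They are followed by the stretch around the poly(A) signal (AATAAA or ATTAAA, capitals) of 3 variant histones. The strand is that of the transcript in GENCODE 29 (GRCh38, the same assembly as hg38).
HIST1H2AC stem-loop: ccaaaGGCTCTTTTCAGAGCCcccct
HIST2H2BE stem-loop: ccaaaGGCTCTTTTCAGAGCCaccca
HIST1H4J stem-loop: taaaaGGCCCTTTTCAGGGCCaccct
H2AFX stem-loop: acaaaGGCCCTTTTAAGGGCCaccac
H2AFX poly(A) signal: tggactaattttATTAAAggattgtttttt
H3F3B poly(A) signal: ggatgagactaaAATAAAatttttgaagtt
H2AFZ poly(A) signal: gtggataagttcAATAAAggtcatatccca
The histone stem-loop was found in 29 of 70 replication-dependent histone transcripts with a sequence. Of the 41 others, 35 models end in a stop codon, before the place where the stem-loop would lie. It was found in 31 of 16566 coding transcripts in all. A poly(A) signal lay in the last 50 bases of 13 of these 70 transcripts, of 11 of 12 variant histones and of 70.2% of coding transcripts.

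The 73 histone rows held 0.562% and 0.547% of reads in experiment 1 and 0.00793%, 0.00587% and 0.00554% in experiment 2, an 85.98-fold difference of means (exact permutation p = 0.2, the smallest possible). The groups lay far apart, and the spread within each was small beside the gap. Of these rows 51 were tested and all 51 were higher in experiment 1 (18.8% of all rows tested were), but 31 of the 51 passed the filter only through experiment 1. The count is therefore a description. All 5 families were included, with 2 H1, 14 H2A, 15 H2B, 9 H3 and 11 H4 rows. H3 rows as a group held 0.128% and 0.127% of reads in experiment 1 and 0.000205%, 0.000367% and 0.000142% in experiment 2. Near-identical copies may share reads, and some rows of the HIST2 cluster have the same coordinates.

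HIST1H1E, a linker histone (chr6:26156331-26157050, 1 exon), had 200.2 and 190.2 RPM in experiment 1 and 0.4004, 0.945 and 0.305 RPM in experiment 2 (log2 difference 7.83 ± 0.34 (SE), adjusted p = 8.8e-05). HIST1H3B, an H3 gene, had 176 and 160.2 RPM in experiment 1 and 0.2503, 0.262 and 0.127 RPM in experiment 2, and passed the filter only through experiment 1. HIST1H2AC, whose stem-loop is shown above, had 98.05 and 93.6 RPM against 1.802, 1.68 and 1.93 RPM (log2 difference 5.67 ± 0.25 (SE), adjusted p = 9.0e-05). In each of these the lowest library of experiment 1 was above the highest of experiment 2. The same held for the 2 others with a printed stem-loop, HIST2H2BE (119 and 131 RPM against 2.55, 1.99 and 3.204 RPM) and HIST1H4J (164 and 168 RPM against 0.601, 1.15 and 1.04 RPM). HIST1H4J was chosen after its values were seen.

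A few histone rows kept more reads in experiment 2. HIST1H2BK, whose listed row spans 8506 bases, had 171 and 159 RPM in experiment 1 and 22.8, 9.92 and 11.2 RPM in experiment 2 (log2 difference 3.85 ± 0.42 (SE), adjusted p = 0.0024). HIST1H4C had 105 and 90.5 RPM against 4.805, 10.6 and 6.23 RPM (log2 difference 4.04 ± 0.34 (SE), adjusted p = 0.0011). HIST1H1C, chosen after its values were seen, had 201 and 184 RPM against 13.6, 5.25 and 5.95 RPM. Even in these rows no library of experiment 2 came near experiment 1, and their folds were 11.3, 13.6 and 23.3. These folds do not include the smallest gap of the class. HIST3H2A averaged 25.9 against 4.33 RPM (experiment 1 first), a smaller fold than in any of the rows above. HIST2H2BC averaged 22.3 against 1.77 RPM in the same order, a smaller fold than that of HIST1H1C.

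The variant histones were not higher in experiment 1 by the test. They are made outside S phase as well, mostly from messages with a tail. Of 12 rows tested 0 were higher in experiment 1 and 5 in experiment 2 (18.8% and 17.8% of all rows were), and 7 were not called. H3F3B, which encodes the variant H3.3, had 289.6 and 282 RPM in experiment 1 and 927, 764 and 895 RPM in experiment 2 (log2 difference -1.28 ± 0.26 (SE), adjusted p = 0.013). H2AFZ, the variant H2A.Z, had 179 and 169 RPM against 533, 649.6 and 599 RPM (log2 difference -1.46 ± 0.22 (SE), adjusted p = 0.0056). H2AFX, which is phosphorylated at DNA breaks, had 107 and 109 RPM against 104, 129 and 159 RPM, overlapping groups and an adjusted p of 0.85. SLBP, the protein that binds the stem-loop, had 86.8 and 76.1 RPM against 99.2, 195 and 121 RPM and was not called (adjusted p = 0.35). The calls of H3F3B and H2AFZ were lost without either library of experiment 1 and in the test for a fold of at least 2.

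**Figure D1:**
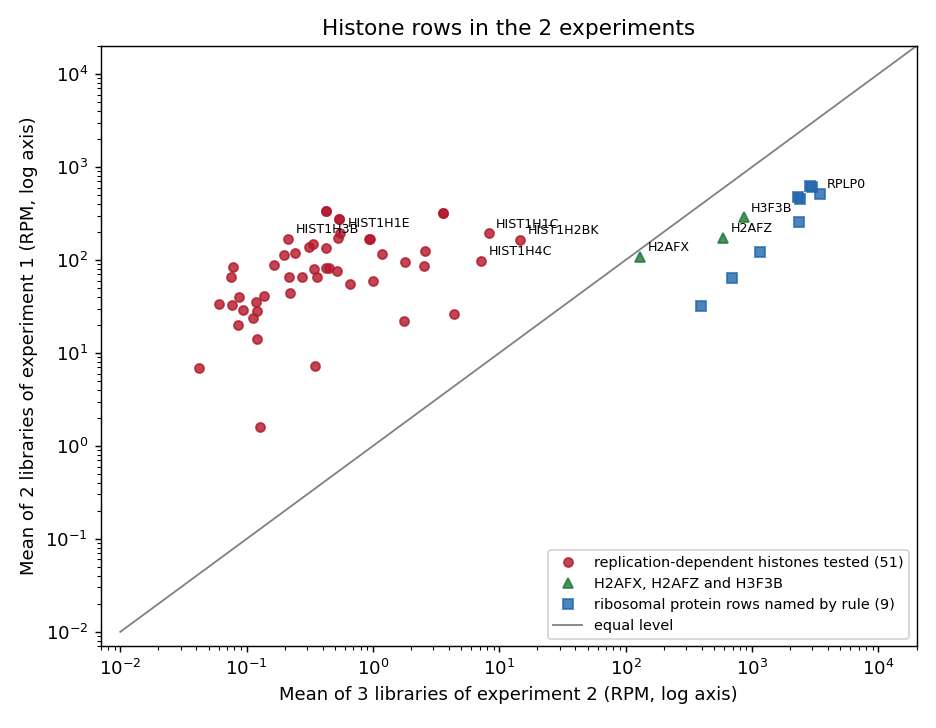
Mean level of histone rows and of the ribosomal protein rows named by rule, in RPM on log axes, with experiment 2 (3 libraries) across and experiment 1 (2 libraries) upward and 1 point per row. The 51 replication-dependent histones lie above the line of equal level, and H3F3B, H2AFZ and RPLP0 lie below it.

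Short RNAs outside hosts, which here means inside no longer row of the same strand, were a larger part of the reads of experiment 1. Some may lie inside a gene of the opposite strand. Their rows, miRNA hairpins outside hosts included and ribosomal RNA left out, held 9.14% and 11.8% of reads in experiment 1 and 0.353%, 0.274% and 0.388% in experiment 2. Some of the 9 hairpin rows of MIR3648, MIR3687, MIR6724 and MIR663A treated below, copies of which share coordinates, are among them. All 9, with or without a host, held 4.47% and 6.68% in experiment 1 and 0.1198%, 0.0103% and 0.0285% in experiment 2. Their part of the shares given here was not separated. The groups did not overlap, and the means differed 30.9-fold. With the long ribosomal precursor row and the 18S row added, the shares were 18.2% and 20.7% against 2.27%, 1.09% and 0.948%, a 13.6-fold difference. U4, the partner of U6 in the spliceosome, shows the kind of molecule (RNU4-1, chr12:120293094-120293237, strand -, with the Sm protein site in capitals). The letters ATTTTTG occur in 1.57% of all small structural transcripts matched.
RNU4-1: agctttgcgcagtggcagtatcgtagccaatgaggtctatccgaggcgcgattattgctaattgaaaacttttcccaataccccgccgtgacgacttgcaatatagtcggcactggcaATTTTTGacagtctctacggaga
RNU4-1, chosen after its values were seen, had 44.8 and 62.4 RPM in experiment 1 and 0, 0.0525 and 0.153 RPM in experiment 2, with 0, 1 and 6 reads in the latter, and passed the filter only through experiment 1.

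Spliceosomal snRNA rows held 0.651% and 0.745% of reads in experiment 1 and 0.00435%, 0.003999% and 0.00272% in experiment 2. Of 79 rows 36 were tested, and 24 were higher in experiment 1 and 2 in experiment 2 (18.8% and 17.8% of all rows tested were). Their median was 2.42, and 14 rows passed only through experiment 1 and 4 only through experiment 2. The U1 rows RNU1-1 to RNU1-4 share coordinates and RNVU1-7 is a near copy, so their reads cannot be assigned to 1 gene. RNVU1-7 had 761 and 869 RPM against 1.301, 0.2099 and 0.2797 RPM (log2 difference 9.89 ± 0.46 (SE), adjusted p = 0.00011). With 1 row kept of those with shared coordinates the class differed 74.8-fold in read share in place of 189-fold.

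The U3 and U8 RNAs guide the cutting of the ribosomal precursor, U7 helps to cut histone messages, and U13 is grouped with them here. Their rows held 1.23% and 1.13% of reads in experiment 1 and 0.00205%, 0.00117% and 0.00176% in experiment 2. Of 8 rows tested 7 were higher in experiment 1 (18.8% of all rows tested were). SNORD3A, a U3 gene that has near-identical copies on the same chromosome (chr17:19188016-19188232), had 2873 and 2675 RPM in experiment 1 and 4.605, 2.099 and 3.64 RPM in experiment 2 (log2 difference 9.80 ± 0.33 (SE), adjusted p = 6.9e-05). SNORD118, the U8 RNA, which lies inside the row of TMEM107, had 10 and 13.7 RPM against 0.501, 0.997 and 1.297 RPM (log2 difference 3.40 ± 0.34 (SE), adjusted p = 0.0019). The exception was RNU7-1, the U7 RNA, chosen after its values were seen, at 0.218 and 0.111 RPM against 0.951, 0.315 and 1.25 RPM, which passed the filter only through experiment 2 and was not called, except without replicate 2 of experiment 2.

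The RNAs of RNA polymerase III and of ribonucleoprotein enzymes took 5.12% and 6.38% of reads in experiment 1 and 0.0637%, 0.0126% and 0.00715% in experiment 2. The means differed 207-fold, and 583-fold without replicate 1 of experiment 2. Of 17 rows tested 16 were higher in experiment 1 (18.8% of all rows tested were), and 10 of these passed only through experiment 1. Some rows of the class share coordinates and repeat the same reads, so the count is not one of separate RNAs. The lower quartile and the median of the log2 difference were the same value, 1.75. RN7SL2 (chr14:49862551-49862849), an RNA of the signal recognition particle with a near copy in RN7SL1, had 22340.0 and 27642 RPM in experiment 1 and 289, 34.9 and 23.4 RPM in experiment 2 (log2 difference 8.94 ± 1.09 (SE), adjusted p = 0.0032). Replicate 1 of experiment 2 was the highest of its group in RN7SL2 and in RN7SK. RN7SK, which holds the elongation factor P-TEFb inactive, had 2388 and 2903 RPM against 21.4, 6.72 and 4.86 RPM (log2 difference 8.42 ± 0.64 (SE), adjusted p = 0.00087).

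RMRP (chr9:35657751-35658018), the RNA of RNase MRP, had 4533 and 5165 RPM in experiment 1 and 2.15, 2.78 and 0.229 RPM in experiment 2, a 2818-fold difference (log2 difference 11.59 ± 0.64 (SE), adjusted p = 0.00022). RPPH1, the RNA of RNase P, had 1562 and 1961 RPM against 1.802, 2.15 and 1.93 RPM (log2 difference 9.76 ± 0.22 (SE), adjusted p = 4.5e-05). TERC, the template of telomerase, had 59.2 and 64.4 RPM against 0.4004, 0.6298 and 0.6103 RPM (log2 difference 6.15 ± 0.27 (SE), adjusted p = 0.0001). The groups lay far apart in all 3. BCYRN1, a brain-enriched RNA derived from an Alu repeat, was the 1 row of the class that was higher in experiment 2, at 1.66 and 1.82 RPM in experiment 1 and 12.7, 40.8 and 13.9 RPM in experiment 2 (log2 difference -2.88 ± 0.54 (SE), adjusted p = 0.0095). Its call was lost without either library of experiment 1 and in the test for a fold of at least 2.

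**Figure D2:**
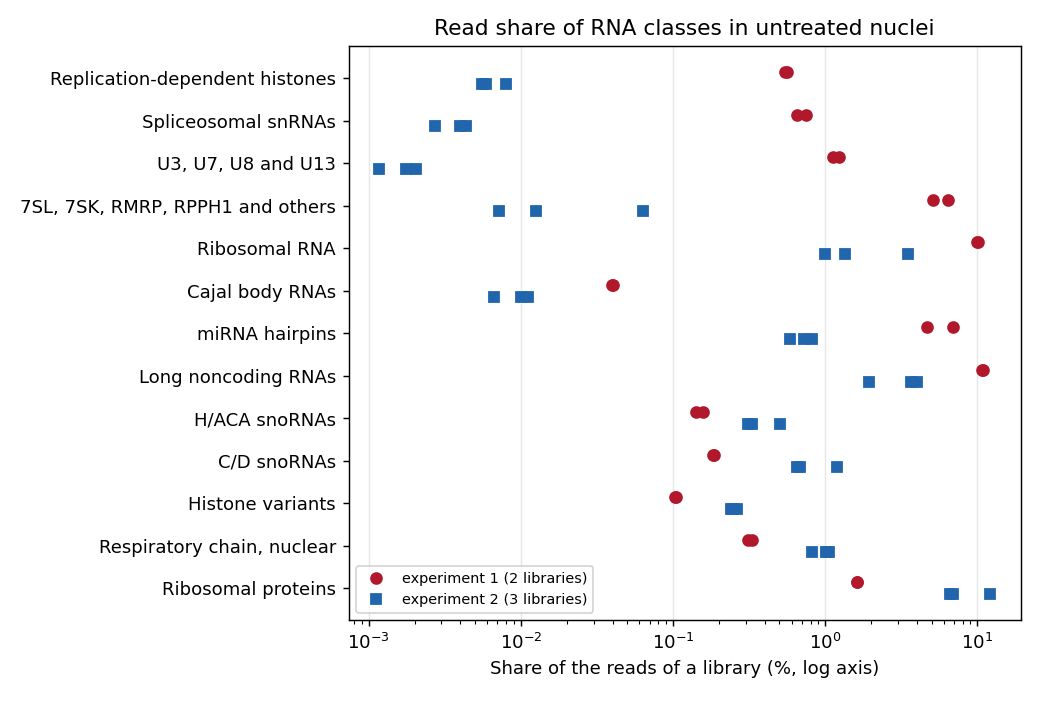
Share of the reads of each untreated library taken by an RNA class, in percent on a log axis, with 1 point per library. Histones, spliceosomal snRNAs, the U3 group and the 7SL group lie 85.98-fold or more higher in experiment 1 (ratio of means), and ribosomal protein rows lie lower.

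Reads of the ribosomal precursor differed in amount and in place. The 4 ribosomal RNA rows held 9.91% and 10.1% of reads in experiment 1 and 3.48%, 1.34% and 0.998% in experiment 2, after a depletion step that was used in both experiments. RNA45S5, the whole precursor, had 88305 and 84682 RPM in experiment 1 and 17339, 6760.5 and 5038 RPM in experiment 2 (adjusted p = 0.047), a call that was lost under 10 of 19 other settings that gave a value, among them leaving out either library of experiment 1 or replicate 2 or 3 of experiment 2. Reads in the row of the mature 28S part, RNA28S5, were 5.73% and 7.35% of those of RNA45S5 in experiment 1 and 88.8%, 77.6% and 85.7% in experiment 2. RNA28S5 itself had 5059 and 6223 RPM against 15391, 5243 and 4318 RPM, with overlapping groups (adjusted p = 0.99). The reads of experiment 1 thus lay mostly outside the 28S part of the precursor row, and those of experiment 2 mostly inside it.

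Rows of miRNA hairpins held 4.67% and 6.88% of reads in experiment 1 and 0.818%, 0.584% and 0.727% in experiment 2, but 9 rows accounted for most of this. The 9 rows of MIR3648, MIR3687, MIR6724 and MIR663A, chosen after their values were seen, held 4.47% and 6.68% of reads in experiment 1 and 0.1198%, 0.0103% and 0.0285% in experiment 2. MIR3648 and MIR3687 lie inside rows of the ribosomal precursor region, and copies of MIR3648, MIR3687 and MIR6724 share coordinates. Without the 9 rows the direction turned, with 0.2004% and 0.199% of reads in experiment 1 and 0.698%, 0.574% and 0.698% in experiment 2. Of 465 hairpin rows tested 31 were higher in experiment 1 (6.67%, against 18.8% of all rows) and 76 in experiment 2 (16.3%, near the 17.8% of all rows), with a median of -0.28. A hairpin row counts reads of its host transcript and not the mature miRNA, which is shorter than the RNAs that such libraries keep.

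Nucleolar RNAs inside host genes split into rows that followed the host and rows that did not. Most nucleolar RNAs guide chemical changes of ribosomal RNA, C/D RNAs methylation and H/ACA RNAs pseudouridylation, but not all do, SNORA73A among the exceptions. Shown are 2 C/D RNAs from introns of RPS12, with the boxes ATGATGA and CTGA in capitals, and 2 H/ACA RNAs that went in opposite directions, with the ACA box in capitals. All are on strand +, from GENCODE 29.
SNORD100: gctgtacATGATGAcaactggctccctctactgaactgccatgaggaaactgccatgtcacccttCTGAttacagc
SNORD101: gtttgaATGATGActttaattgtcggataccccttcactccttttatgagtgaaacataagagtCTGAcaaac
SNORA66: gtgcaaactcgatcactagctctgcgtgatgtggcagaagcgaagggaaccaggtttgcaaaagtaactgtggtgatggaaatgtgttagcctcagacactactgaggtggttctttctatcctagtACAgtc
SNORA73A: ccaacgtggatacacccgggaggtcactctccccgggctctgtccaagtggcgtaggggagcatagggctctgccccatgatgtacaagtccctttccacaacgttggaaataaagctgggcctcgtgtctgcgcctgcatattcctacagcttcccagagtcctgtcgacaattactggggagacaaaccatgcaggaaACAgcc
Both boxes within 20 bases of the ends occurred in 123 of 239 C/D transcripts and 5.71% of all small structural transcripts. An ACA that ends 3 bases before the end occurred in 81 of 106 H/ACA transcripts and in 5.76% of all small structural ones.

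C/D rows held 0.185% and 0.184% of reads in experiment 1 and 1.202%, 0.651% and 0.679% in experiment 2. Of 143 tested 3 were higher in experiment 1 and 66 in experiment 2 (18.8% and 17.8% of all rows tested were), with a median of -1.06. SNORD100 (chr6:132816802-132816877) had 34.4 and 35.8 RPM in experiment 1 and 514, 275 and 278 RPM in experiment 2 (log2 difference -2.95 ± 0.38 (SE), adjusted p = 0.0035). Its host RPS12, a ribosomal protein gene chosen after its values were seen, had 145 and 158 RPM against 2129.8, 993 and 1174 RPM (log2 difference -2.85 ± 0.43 (SE), adjusted p = 0.0052), a call lost without either library of experiment 1. Host rows hold the reads of the rows inside them, so the RNA was also set against its host. SNORD100 took 23.8% and 22.6% of the host reads in experiment 1 and 24.1%, 27.7% and 23.7% in experiment 2. These shares overlapped, whereas those of SNORD101, at 16.4% and 20.2% of the host reads in experiment 1 and 24.95%, 22.7% and 25.3% in experiment 2, did not. Over 114 C/D rows with enough reads (100 in the row over the 5 libraries and 100 in the host in each), the share of host reads was higher without overlap in experiment 1 for 31 and in experiment 2 for 30. Over all 521 such small rows inside a host these counts were 122 (23.4%) and 187 (35.9%), and 212 overlapped.

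H/ACA rows held 0.142% and 0.157% of reads in experiment 1 and 0.506%, 0.313% and 0.3304% in experiment 2, with 18 of 94 rows tested higher in experiment 1 (19.1%, near the 18.8% of all rows) and 25 in experiment 2 (26.6%, against 17.8%), and a median of -0.21. SNORA73A (chr1:28507365-28507571), inside SNHG3, had 232 and 276 RPM in experiment 1 and 4.96, 5.196 and 3.48 RPM in experiment 2 (log2 difference 5.96 ± 0.30 (SE), adjusted p = 0.00014). It took 39.5% and 41.01% of the host reads in experiment 1 and 3.67%, 3.16% and 2.04% in experiment 2. The host went the same way by less, and SNHG3 had 587 and 673 RPM against 135, 164 and 171 RPM (log2 difference 2.32 ± 0.22 (SE), adjusted p = 0.0015). The opposite case was SNORA66 (chr1:92840719-92840851), inside the ribosomal protein gene RPL5, at 7.38 and 5.7 RPM in experiment 1 and 209.8, 126 and 174 RPM in experiment 2 (log2 difference -4.28 ± 0.30 (SE), adjusted p = 0.00063). SNORA66 took 2.56% and 2.25% of the host reads in experiment 1 and 10.9%, 9.81% and 13.5% in experiment 2. Of 69 H/ACA rows, the share of host reads was higher without overlap in experiment 1 for 28 and in experiment 2 for 17. Over all 521 such small rows 23.4% and 35.9% were.

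Cajal body RNAs, which guide changes of the spliceosomal snRNAs, held 0.04001% and 0.0398% of reads in experiment 1 and 0.00666%, 0.010% and 0.0111% in experiment 2. Of 22 tested 11 were higher in experiment 1 and 0 in experiment 2 (18.8% and 17.8% of all rows tested were), with a median of 0.96. SCARNA2, which has no host of the same strand, had 102 and 99.3 RPM in experiment 1 and 0.4004, 0.367 and 0.661 RPM in experiment 2, and passed the filter only through experiment 1. SCARNA10 in NCAPD2 took 25.1% and 22.97% of the host reads in experiment 1 and 2.02%, 1.34% and 0.559% in experiment 2. Of 19 such rows 12 had a higher share of host reads in experiment 1 and 4 in experiment 2, and 3 overlapped. Over all 521 small rows inside a host 23.4% and 35.9% were higher without overlap in these directions.

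**Figure D3:**
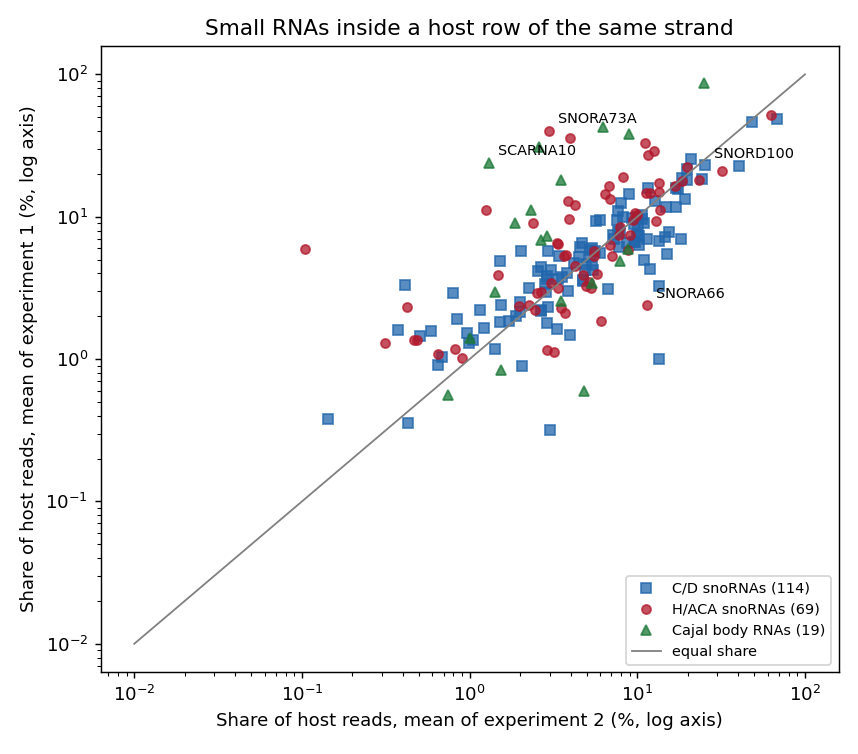
Reads of nucleolar and Cajal body RNAs as a percentage of the reads of the host row, on log axes, with the mean of experiment 2 across and of experiment 1 upward and 1 point per row. SNORA73A and SCARNA10 lie far above the line of equal share, SNORD100 lies near it and SNORA66 below it.

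Ribosomal protein genes, whose short and abundant messages encode the proteins of the ribosome, were higher in experiment 2. The 80 rows held 1.62% and 1.62% of reads in experiment 1 and 12.1%, 6.56% and 6.87% in experiment 2. Of these, 0 were higher in experiment 1 and 78 in experiment 2 (18.8% and 17.8% of all rows tested were), with a median of -1.96. RPLP0, of the ribosomal stalk, had 488 and 537 RPM in experiment 1 and 4591, 3046 and 2629 RPM in experiment 2 (log2 difference -2.39 ± 0.44 (SE), adjusted p = 0.0091). RPS2 had 584 and 624 RPM against 3874, 2652 and 2471 RPM (log2 difference -1.97 ± 0.41 (SE), adjusted p = 0.014). Replicate 1 of experiment 2 was highest in both, and no library of experiment 1 overlapped with experiment 2. Both calls were lost without either library of experiment 1. With no library left out, the call of RPLP0 was kept in 15 of 16 other settings and that of RPS2 in 14 of 15. Nuclear genes of the respiratory chain went the same way, with 0 of 74 higher in experiment 1 and 60 in experiment 2 (18.8% and 17.8% of all rows).

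The difference between the experiments followed the span of a row. The rows outside the small structural classes were divided by span. Of all rows tested 18.8% were higher in experiment 1 and 17.8% in experiment 2, the shares beside which these counts stand. Of 251 rows under 1 kb, 60 were higher in experiment 1 and 82 in experiment 2 (median -0.54), and without the histones 12 and 82 of 203. At 1 to 5 kb 79 and 736 of 2157 rows were called in these directions (median -0.67). At 5 to 20 kb 245 and 1147 of 4334 were (median -0.42). The balance turned at 20 to 100 kb, with 1084 and 489 of 5420 (median 0.28). At 100 to 500 kb 1096 and 23 of 1775 were called (median 1.38), and at 500 kb or more 120 and 3 of 164 (median 1.59). Of the 164 longest rows, 36 passed the filter only through experiment 1.

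**Figure D4:**
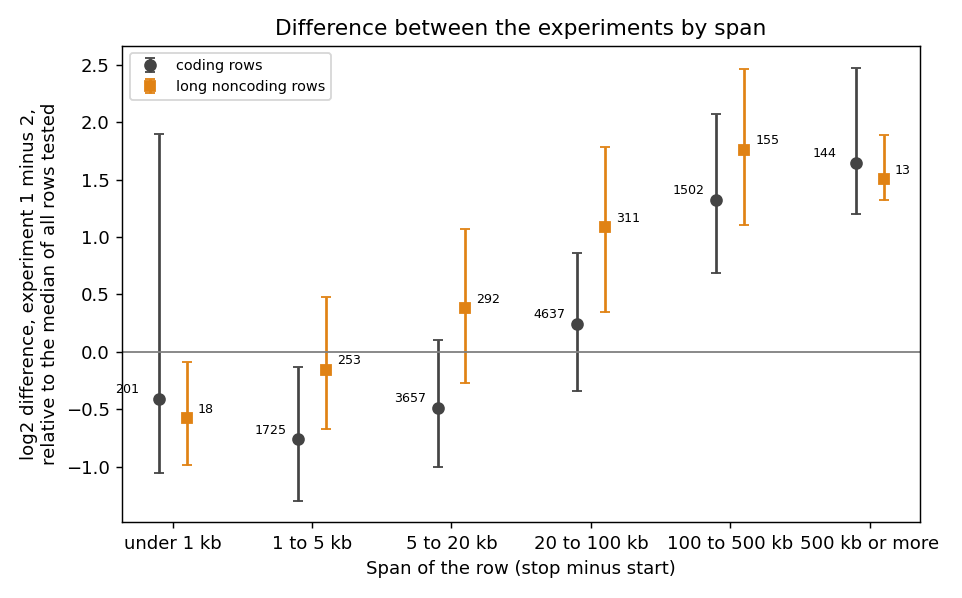
Median log2 difference, experiment 1 minus experiment 2, relative to all rows tested, by span of the row, for coding and long noncoding rows, with bars from the lower to the upper quartile of rows and the number of rows beside each point. Coding rows of 1 to 5 kb have a median of -0.76 and those of 100 to 500 kb a median of 1.33.

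Rows of 500 kb or more held 1.13% and 1.03% of reads in experiment 1 and 0.3203%, 0.259% and 0.3497% in experiment 2. MAGI1, a scaffold protein of cell junctions (chr3:65354231-66038308, 23 exons), had 1002 and 936 RPM in experiment 1 and 78.9, 44.7 and 159 RPM in experiment 2 (log2 difference 3.85 ± 0.47 (SE), adjusted p = 0.0032). LPP, a focal adhesion protein, had 661 and 601 RPM against 54.7, 18.9 and 75.8 RPM (log2 difference 4.17 ± 0.55 (SE), adjusted p = 0.0037). PRKCA, protein kinase C alpha, had 320.4 and 293 RPM against 17.97, 14.2 and 20.3 RPM (log2 difference 4.41 ± 0.22 (SE), adjusted p = 0.00014). DOCK1, an activator of the GTPase RAC, had 629.9 and 593 RPM against 141, 104 and 106 RPM (log2 difference 2.70 ± 0.27 (SE), adjusted p = 0.0019). The libraries of experiment 1 were close to one another in all of these, and within experiment 2 replicate 2 was lowest for MAGI1, LPP, PRKCA and DOCK1.

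Between 100 and 500 kb, VTI1A, a vesicle fusion protein, had 1459 and 1333 RPM in experiment 1 and 90.2, 70.02 and 98.8 RPM in experiment 2 (log2 difference 4.33 ± 0.24 (SE), adjusted p = 0.00022). SLC35F3 had 1347 and 1248 RPM against 45.3, 26.2 and 20.9 RPM (log2 difference 5.76 ± 0.40 (SE), adjusted p = 0.00063). Only 3 of the longest rows were called higher in experiment 2. These were MECOM, a transcription factor (69.1 and 60.9 RPM against 373, 279 and 299.8 RPM), LHFPL3 (98.6 and 91.9 RPM against 301, 248 and 227 RPM) and the ion channel ASIC2 (10.6 and 9.52 RPM against 20.02, 20.2 and 24.5 RPM). Their groups did not overlap, but none of the 3 calls was kept in a test for a fold of at least 2 or without replicate 2 of experiment 1. Those of LHFPL3 and ASIC2 were also lost without replicate 1.

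Some abundant short genes were apart in level without passing the test. EEF1A1, a translation elongation factor, had 2914 and 2742 RPM in experiment 1 and 26198, 12844 and 11781 RPM in experiment 2 and an adjusted p of 0.064. GAPDH, of glycolysis, had 1447 and 1471 RPM against 3478, 4782 and 3349.6 RPM and an adjusted p of 0.096. ACTG1, a cytoplasmic actin, had 2444 and 2363 RPM against 6942, 5342 and 4171 RPM and an adjusted p of 0.25. In these 3 no libraries overlapped, with experiment 2 the higher. EEF1A1 was called without replicate 1 or replicate 3 of experiment 2 and GAPDH without replicate 3. Among the 16 other settings that left no library out, EEF1A1 stayed uncalled in 11 and GAPDH in 13. Limma-voom on whole reads was among those that called both.

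Short genes outside these lists were also higher in experiment 2. CYP1A1, an enzyme induced through the aryl hydrocarbon receptor, had 0.926 and 1.13 RPM in experiment 1 and 56.4, 87.5 and 141 RPM in experiment 2 (log2 difference -5.62 ± 0.35 (SE), adjusted p = 0.00035). SAT1, which acetylates polyamines, had 49.8 and 42.5 RPM against 2008, 498 and 1597 RPM (log2 difference -4.35 ± 0.60 (SE), adjusted p = 0.0042). HES1, a Notch target, had 4.22 and 4.59 RPM against 98.2, 35.5 and 511 RPM (log2 difference -4.35 ± 0.97 (SE), adjusted p = 0.017). Immediate early genes are switched on within minutes by growth factors and stress, and of 37 tested 0 were higher in experiment 1 and 15 in experiment 2 (18.8% and 17.8% of all rows were). JUN, one of them, with 1 exon, had 11.9 and 12.7 RPM against 141, 52.7 and 457 RPM (log2 difference -3.26 ± 0.78 (SE), adjusted p = 0.021). For HES1 and JUN replicate 3 of experiment 2 was far above its partners, and both calls were lost without replicate 1 of experiment 2 or either library of experiment 1. With no library left out, each of these calls was kept in 15 of 16 other settings.

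Exon number was known for 93.5% of rows tested. Of all rows tested 18.8% were higher in experiment 1 and 17.8% in experiment 2, the shares beside which these counts stand. Rows of 1 exon were about balanced, with 80 of 427 higher in experiment 1 and 60 in experiment 2 (median -0.04), and the higher ones include the histones. The counts were 432 and 670 of 2851 at 2 to 4 exons (median -0.21), 648 and 1040 of 4288 at 5 to 9 (median -0.22) and 778 and 520 of 3884 at 10 to 19 (median 0.11). With 20 or more exons, 530 and 73 of 1779 were called (median 0.53).

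Within the bin of 100 to 500 kb, coding rows with more exons had the lower medians. At 100 to 500 kb the median was 1.70 for 2 to 4 exons (76 rows), 1.69 for 5 to 9, 1.41 for 10 to 19 and 1.14 for 20 or more (615 rows). At 1 to 5 kb it was -0.10 for 1 exon (190 rows), -0.75 for 2 to 4, -0.96 for 5 to 9 (550 rows) and -0.74 for 10 to 19 (88 rows). At 20 to 100 kb there was no single order, with 0.65, 0.17, 0.18 and 0.29 from 2 to 4 up to 20 or more exons. Across coding rows the log2 difference had a Spearman correlation of 0.571 with span (11866 rows), 0.263 with exon number and -0.529 with exons per kb (11479 rows). These are descriptions over rows that share the 5 libraries. PLEC, a cytoskeletal linker with 32 exons in 24315 bases, had 1789.6 and 1867 RPM in experiment 1 and 1007, 893 and 649.8 RPM in experiment 2 (log2 difference 1.44 ± 0.38 (SE), adjusted p = 0.029), a call lost without either library of experiment 1, with no filter, with the replicate number as a block and in the test for a fold of at least 2. FASN, fatty acid synthase, with 43 exons in 18108 bases, had 1027 and 1070.1 RPM against 439, 976 and 562 RPM (adjusted p = 0.077), and was called without replicate 2 of experiment 2 (adjusted p = 0.011). FLNA, an actin cross-linker with 48 exons in 22714 bases, had 797 and 829 RPM against 876, 973 and 692 RPM, with overlapping groups. GOLGB1, a Golgi protein with 21 exons in 66798 bases, went the other way, at 63.8 and 60.9 RPM against 319.9, 255 and 376 RPM (log2 difference -2.01 ± 0.23 (SE), adjusted p = 0.0026).

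Long noncoding rows were more often higher in experiment 1. Of 1042 tested 366 were higher in experiment 1 and 61 in experiment 2 (18.8% and 17.8% of all rows tested), with a median of 0.62, and 116 passed only through experiment 1 and 77 only through experiment 2. Their read share was 10.9% and 10.7% of reads in experiment 1 and 4.01%, 1.94% and 3.64% in experiment 2, but 1 row of the ribosomal precursor region, LOC100507412, whose coordinates differ between the tables, made up most of it in experiment 1, where it had 83285 and 83094 RPM (17134, 6704 and 4890 RPM in experiment 2). Over rows with the same coordinates the share was 2.56% and 2.41% of reads in experiment 1 and 2.297%, 1.27% and 3.15% in experiment 2, with overlapping groups (exact permutation p = 0.8). The order by span seen in coding rows held here too, with medians of -0.16 at 1 to 5 kb (253 rows), 1.09 at 20 to 100 kb (311 rows) and 1.76 at 100 to 500 kb (155 rows).

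MIR663AHG, a miRNA host gene (chr20:26187019-26209233), had 1493 and 1239.6 RPM in experiment 1 and 3.103, 1.73 and 2.21 RPM in experiment 2 (log2 difference 9.21 ± 0.29 (SE), adjusted p = 6.4e-05). LINC-PINT, a p53-induced RNA, had 442 and 425 RPM against 10.8, 10.2 and 17.9 RPM (log2 difference 5.36 ± 0.25 (SE), adjusted p = 0.00011). MIR31HG had 1206 and 1081 RPM against 94.5, 93.5 and 119.6 RPM (log2 difference 3.79 ± 0.21 (SE), adjusted p = 0.00022). MIR100HG had 861 and 769 RPM against 77.6, 122 and 121 RPM (log2 difference 3.26 ± 0.24 (SE), adjusted p = 0.00078). FTX, from the X inactivation centre, had 332 and 306 RPM against 78.5, 44.4 and 76.6 RPM (log2 difference 2.60 ± 0.31 (SE), adjusted p = 0.0029). LINC00673 had 669 and 681 RPM against 121, 64.1 and 39.5 RPM (log2 difference 3.62 ± 0.52 (SE), adjusted p = 0.0045). None of these groups overlapped. Of 16 miRNA host rows tested 9 were higher in experiment 1 and 0 in experiment 2 (18.8% and 17.8% of all rows tested were).

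Of 23 rows tested from a list named for nuclear-retained long noncoding RNAs, 13 were higher in experiment 1 and 2 in experiment 2. Of all rows tested 18.8% and 17.8% were. Where each RNA lies in these cells was not tested, and the rows named below are not all known to stay in the nucleus. MALAT1, of nuclear speckles, had 3884 and 3567 RPM in experiment 1 and 6024, 999 and 13180.5 RPM in experiment 2, so experiment 1 lay inside the range of experiment 2 (adjusted p = 0.95). NEAT1, the scaffold of paraspeckles, had 199 and 191 RPM against 109, 151 and 106 RPM (log2 difference 1.00 ± 0.25 (SE), adjusted p = 0.024). The call of NEAT1 was lost with no scaling beyond RPM, without either library of experiment 1, with the replicate number as a block, in the fit of all 20 libraries and in the test for a fold of at least 2. LINC00657, also called NORAD and 1 exon long, was higher in experiment 2, at 153 and 146 RPM against 510.1, 358 and 367 RPM (log2 difference -1.13 ± 0.29 (SE), adjusted p = 0.027). LRRC75A-AS1, a spliced host of nucleolar RNAs, had 189.6 and 188 RPM against 1441, 522 and 801 RPM (log2 difference -1.85 ± 0.48 (SE), adjusted p = 0.027). Both calls were lost without either library of experiment 1 and in the test for a fold of at least 2, and that of LRRC75A-AS1 also without replicate 3 of experiment 2. HOTAIRM1, from the HOXA cluster, had 0.953 and 1.198 RPM against 11.4, 10.6 and 13.1 RPM (log2 difference -2.70 ± 0.28 (SE), adjusted p = 0.002).

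The other 3 conditions, whose 15 libraries did not enter the comparison, were set beside these values, experiment by experiment. The read share of replication-dependent histones lay between 0.589 and 0.808% in the 6 libraries of experiment 1 and between 0.00534 and 0.00826% in the 9 of experiment 2, over DMSO with peptide, Nutlin-3a with water and Nutlin-3a with peptide. Small rows outside hosts, ribosomal RNA left out, took 10.02 to 17.7% and 0.246 to 0.437%, and ribosomal protein rows 1.64 to 2.01% and 5.19 to 11.2%. The medians here come from log2(RPM + 0.5) of the group means without further scaling, so they are not the measure of the main medians. By it the untreated libraries gave 1.64 for rows of 500 kb or more, -1.08 for C/D rows and 0.67 for long noncoding rows. For H/ACA and hairpin rows it gave -0.17 and -0.20. In the other 3 conditions the median of rows of 500 kb or more was 1.34 to 1.63, that of C/D rows -1.09 to -0.75 and that of long noncoding rows 0.55 to 0.67. The medians of H/ACA rows (-0.32 to 0.12) and miRNA hairpin rows (-0.17 to 0.02) crossed 0. In 1 library of experiment 1, from Nutlin-3a with water, rows of 500 kb or more took 0.475%, the lowest of that experiment and above the highest of experiment 2 (0.373%). In the same library rows of 100 to 500 kb took 7.87%, below the 8.53 to 9.52% of the 3 matched libraries of experiment 2, whereas the other 5 libraries of experiment 1 held 11.5 to 15.3%.

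**Figure D5:**
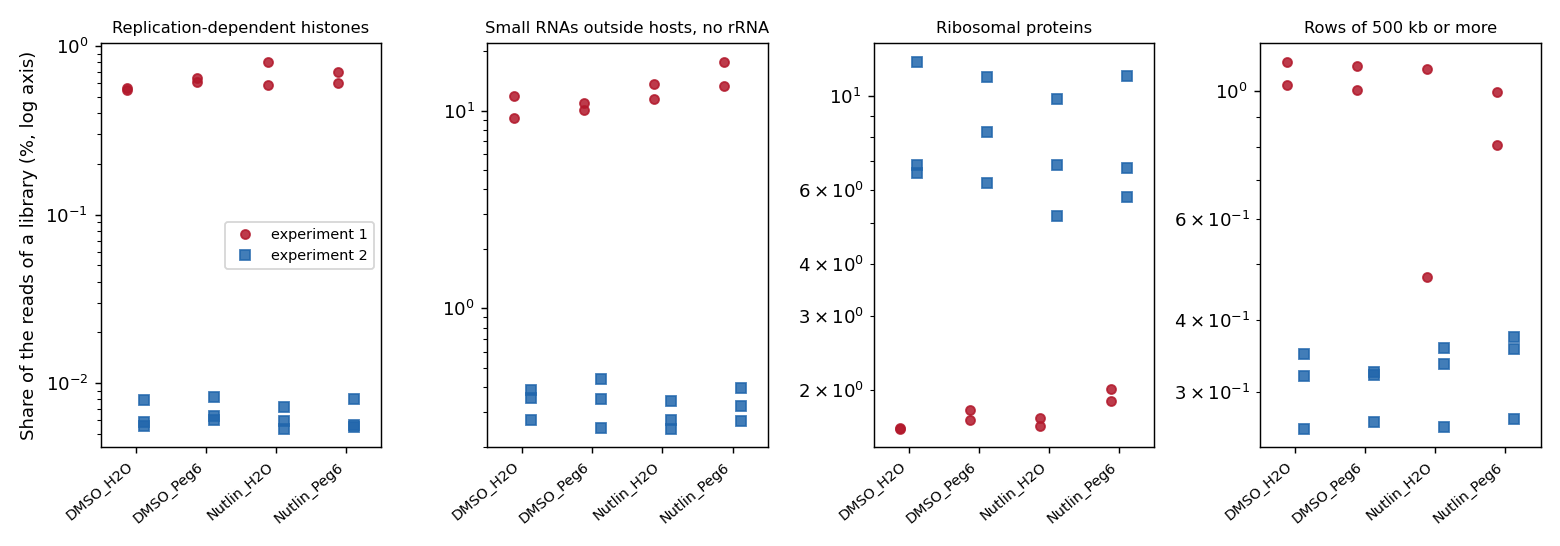
Share of reads taken by 4 groups of rows in all 20 libraries, in percent on log axes, by condition (DMSO or Nutlin-3a, with water or the peptide named Peg6) and experiment, with 1 point per library. In each panel and condition the 2 libraries of experiment 1 and the 3 of experiment 2 do not overlap.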

How the data were processed

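The authors' deposited values, 1 table per experiment, are in a unit of their own, RPM (reads scaled to 1000000 per library) over a divisor that takes the start in kilobases from the stop in bases. Multiplied back, each column summed to 1000000 and gave whole reads in 100% of values (tolerance 0.001). Tools named, per the submitters' processing notes, are HISAT2, bedtools and limma, with the build hg38; settings and counting rules are not given in the sources used here. Host rows held at least the reads of same-strand rows inside them in 100% of row-library pairs, so introns appear to be counted. Libraries held 19052980 to 45085187 reads. The widest 95% Wilson interval of a class share was within 13.2% of it, for counting error only.

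Rows with a mean of at least 0.5 RPM were scaled by a trimmed mean of M values (30% of log ratios and 5% of abundances trimmed) and tested by limma 3.58.1 with a trend on log2(RPM + 0.5) (R 4.3.3). The procedure was run on simulated reads with the same dispersion in both groups. The spread of these libraries was unequal between the groups, so that run does not cover their case. Exon numbers and sequences came from GENCODE 29 through RefSeq isoforms. Members and lists were chosen with earlier results of these data known. Named rows are, per class, the 6 highest in level and up to 3 called rows with the largest and the smallest difference (mean of at least 5 RPM), the 10 largest and smallest over all rows, and a panel; not all are printed. Other settings changed scaling, filter, pseudocount, test, isoform match, libraries and replicate block.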

Additional observations from a re-analysis of the deposited data

How the results depend on the processing

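Under 21 other settings no recomputed class median changed its sign, except that of rows of 1 exon, which was -0.04 and rose to 0.00056 with a pseudocount of 5. Rows higher in experiment 1 outnumbered those higher in experiment 2 by 2796 to 2650, but were fewer with no scaling (2043 to 3595), with 0.5 RPM in the lower group (2453 to 2603), with a mean of at least 5 RPM (2102 to 2559) and in the fit of all 20 libraries (3136 to 3143). Of the settings, 2 (host rows left out, and 1 row kept of shared coordinates) were added after the data were seen. Medians were recomputed for the small RNA classes, histones, ribosomal proteins, long noncoding rows and the bins of span and exon number, and not for the respiratory chain, variant histones, immediate early genes, miRNA hosts or nuclear-retained RNAs, whose counts alone are given, a choice made after their values were seen. Of the recomputed values, 319 of 417 outside the settings that leave out 1 library, and 149 of 170 within those, stayed within the spread between libraries or within 1.5 times the main count. The others follow, and the cause of each move was not tested unless the setting itself removes rows or libraries. With 0.5 RPM in the lower group the median was -0.13 for rows of 1 exon, 6.16 for histones, 8.86 for the 7SL group, 0.26 for small RNAs outside hosts, 6.02 for snRNAs and -0.66 for rows under 1 kb. With a mean of at least 5 RPM the median was -0.14 for rows of 1 exon, -0.40 for rows of 2 to 4 exons, 0.59 for rows of 20 or more exons, -0.27 for rows of 5 to 9 exons, 6.71 for histones, 0.85 for long noncoding RNAs, -0.86 for hairpins, 8.93 for the 7SL group, 3.74 for Cajal body RNAs, -1.04 for small RNAs inside hosts, 4.02 for small RNAs outside hosts, 9.40 for snRNAs, -1.54 for C/D RNAs, -0.83 for H/ACA RNAs, -0.87 for rows of 1 to 5 kb, 1.51 for rows of 100 to 500 kb, 0.30 for rows of 20 to 100 kb, -0.47 for rows of 5 to 20 kb, 2.51 for rows of 500 kb or more and -0.71 for rows under 1 kb. Without structural and histone rows the median was -0.17 for rows of 1 exon and -0.75 for rows under 1 kb. With no filter the median was 0.038 for rows of 10 to 19 exons, -0.039 for rows of 2 to 4 exons, 0.37 for rows of 20 or more exons, -0.072 for rows of 5 to 9 exons, 5.70 for histones, 0.059 for long noncoding RNAs, -0.0034 for hairpins, 0.014 for the 7SL group, 0.61 for Cajal body RNAs, -0.10 for small RNAs inside hosts, 0.0077 for small RNAs outside hosts, 0.78 for snRNAs, -0.48 for C/D RNAs, -0.13 for H/ACA RNAs, -0.18 for rows of 1 to 5 kb, 0.996 for rows of 100 to 500 kb, 0.12 for rows of 20 to 100 kb, -0.14 for rows of 5 to 20 kb and -0.055 for rows under 1 kb. With a pseudocount of 5 the median was -0.093 for rows of 2 to 4 exons, 0.38 for rows of 20 or more exons, -0.13 for rows of 5 to 9 exons, 4.10 for histones, 0.23 for long noncoding RNAs, -0.064 for hairpins, 0.38 for the 7SL group, 0.34 for Cajal body RNAs, -0.087 for small RNAs inside hosts, 0.28 for small RNAs outside hosts, 8.35 for the U3 group, 0.64 for snRNAs, -0.75 for C/D RNAs, -0.055 for H/ACA RNAs, -0.34 for rows of 1 to 5 kb, 0.91 for rows of 100 to 500 kb, 0.18 for rows of 20 to 100 kb, -0.27 for rows of 5 to 20 kb, 0.53 for rows of 500 kb or more and -0.19 for rows under 1 kb. With limma-voom the median was -0.25 for rows of 5 to 9 exons, 8.25 for histones, 0.80 for long noncoding RNAs, 4.45 for the 7SL group, 1.21 for Cajal body RNAs, 1.26 for small RNAs outside hosts, 5.01 for snRNAs, -1.17 for C/D RNAs, -0.78 for rows of 1 to 5 kb, 1.54 for rows of 100 to 500 kb, -0.48 for rows of 5 to 20 kb and 2.28 for rows of 500 kb or more. With a pseudocount of 0.1 the median was 7.68 for histones, 0.78 for long noncoding RNAs, 3.31 for the 7SL group, 1.18 for Cajal body RNAs, 1.12 for small RNAs outside hosts, 3.998 for snRNAs, -1.14 for C/D RNAs, -0.75 for rows of 1 to 5 kb, 1.52 for rows of 100 to 500 kb, -0.46 for rows of 5 to 20 kb and 2.15 for rows of 500 kb or more. With 1 row kept of shared coordinates the median was 8.67 for the 7SL group and 0.58 for small RNAs outside hosts. With the same coordinates the median was 6.51 for the U3 group and 3.46 for snRNAs. With 1 library left out the median ranged from -0.26 to -0.21 for rows of 5 to 9 exons, from 1.70 to 9.09 for the 7SL group, from 0.69 to 1.10 for Cajal body RNAs, from 0.40 to 1.22 for small RNAs outside hosts, from 2.33 to 3.49 for snRNAs, from -0.30 to -0.12 for H/ACA RNAs, from 1.30 to 1.43 for rows of 100 to 500 kb, from 0.25 to 0.29 for rows of 20 to 100 kb, from -0.46 to -0.40 for rows of 5 to 20 kb and from -0.59 to -0.42 for rows under 1 kb. The test for a fold of at least 2 left 604 rows higher in experiment 1 and 119 in experiment 2. With 1 library left out the counts were 553 to 3486 and 169 to 3271, and the fold of the 7SL group in read share was 151 to 583. The fold in read share was 1.11 for long noncoding rows with the same coordinates and 74.8 for snRNAs with 1 row kept of shared coordinates. Here small RNAs outside hosts include the ribosomal precursor and 18S rows. Medians of the small classes have no value with the structural and histone rows left out. Replicates 1 and 2 occur in both experiments, and deviations from the group means correlated at -0.10 and -0.08. With 2 libraries in experiment 1 the deviations mirror each other, so this cannot decide whether the numbers pair libraries. With the replicate number as a block 2450 and 2046 rows were called in place of 2796 and 2650. For the genes recomputed one by one, 1378 values kept their side of the threshold, 70 lost a call and 13 gained one. Depth limits the lowest rows most, since 1 read is 0.0222 to 0.0525 RPM in these libraries.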
